A study of Homo sapiens with 8 samples.

Results

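ADGRB1, ADGRB2 and ADGRB3 encode the ADGRB receptors, a family of 3 adhesion G protein-coupled receptors once called brain-specific angiogenesis inhibitors (BAI1, BAI2 and BAI3). Every deposited m6A peak that overlapped the RefSeq bounds of one of these genes by at least 1 bp was taken, on either strand. This gave 79 of 53021 peaks. The METTL3-knockout list contributed 26, all in ADGRB3. The wild-type list contributed 53, of which 50 lay in ADGRB3, 2 in ADGRB2 and 1 in ADGRB1. The genes were chosen by these peak counts and by the fold of one wild-type ADGRB3 peak, measured in the same lists. Counts, folds and partners of the peaks are therefore given as a description, without a test.

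The cells were HEK293T, an established human embryonic kidney line, in METTL3 knockout form and as the parental wild type. The 8 samples were 2 knockout IP, 2 knockout input, 2 wild-type IP and 2 wild-type input libraries of RNA that copurified with chromatin. IP means pulled down with an m6A antibody, and input is the same RNA before the pull-down. The sources used here do not say how METTL3 was disrupted or whether the knockout is a single clone. Each genotype is represented by a single peak list (23937 knockout and 29084 wild-type peaks) with no value per replicate, so no difference below has a replicate check. METTL3 itself held 0 knockout and 2 wild-type peaks, a weak check of the labels at such low numbers.

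N6-methyladenosine (m6A) is written on nascent RNA by a complex whose catalytic subunit is METTL3. RNA on chromatin is rich in unspliced transcripts, so an antibody peak may fall anywhere along a gene. ADGRB receptors carry thrombospondin-type repeats outside the cell and a membrane-proximal domain of a kind that can cleave itself. They are best known from brain, where ADGRB1 binds phosphatidylserine on dying cells and signals through ELMO and DOCK1 to the GTPase RAC1, and ADGRB3 binds C1q-like proteins at synapses. HEK293T is not a neuronal line, and levels of mature ADGRB mRNA were not measured here.

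ADGRB3 (gene ID 577) lies on the plus strand of chromosome 6, 68635282 to 69389506 (GRCh38), and is 754225 bp long. ADGRB2 (gene ID 576) occupies 31727117 to 31764340 of chromosome 1 on the minus strand. The 250 bases ahead of the annotated starts of ADGRB3 and ADGRB2 are printed to show the sequence at the annotated starts of the genes that hold peaks on their own strand. They are from RefSeq, GRCh38.p14, 5′ to 3′ on each gene's own strand, chr6:68635032-68635281 (plus) and chr1:31764341-31764590 (minus). Capitals mark the dinucleotide CG, which reads alike on both strands.
ADGRB3: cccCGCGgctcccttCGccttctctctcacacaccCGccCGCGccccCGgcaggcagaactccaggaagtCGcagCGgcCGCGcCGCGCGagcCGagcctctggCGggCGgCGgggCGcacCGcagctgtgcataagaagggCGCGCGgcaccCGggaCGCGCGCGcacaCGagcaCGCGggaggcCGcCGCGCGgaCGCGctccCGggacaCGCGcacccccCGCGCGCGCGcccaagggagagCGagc
ADGRB2: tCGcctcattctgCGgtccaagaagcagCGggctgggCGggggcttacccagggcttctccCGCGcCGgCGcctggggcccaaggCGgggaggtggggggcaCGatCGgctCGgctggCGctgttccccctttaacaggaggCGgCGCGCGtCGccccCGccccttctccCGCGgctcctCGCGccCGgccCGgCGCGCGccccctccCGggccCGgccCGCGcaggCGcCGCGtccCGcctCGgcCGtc

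The ADGRB3 window held 46 CG and was 79.2% G or C, and the ADGRB2 window held 38 CG at 79.6%. Among 22198 such windows of protein-coding genes the median was 16 CG and 62% G or C. CG occurred in 96.8% of all windows. Fewer CG than in ADGRB3 were found in 99.5% of them, and fewer than in ADGRB2 in 95.9%. Both family members thus started in windows at the CG-rich end. No peak of either list lay in these windows, and the nearest ADGRB3 summits were downstream, at 8.68 kb from the start in the knockout and 3.89 kb in wild type.

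ADGRB3 peaks followed the gene's own strand. In the knockout 25 of 26 lay on the plus strand and 1 on the minus strand, and in wild type 50 of 50 lay on the plus strand. Over protein-coding genes of known strand, 91.4% of knockout and 92% of wild-type peaks lay on the strand of the gene, and in other genes of 0.5 to 2 times the length of ADGRB3 94.8% and 95.2%. Fold is the authors' value for a peak, IP signal over local input, which is the background the peak caller took from input reads around the summit. IP reads are the reads at the summit as solved from the fold and its p-value. The lone opposite-strand peak spanned 68875057 to 68875256, with a fold of 6.28 on 14 IP reads. ADGRB3 was therefore close to what long genes show in general.

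The peaks kept to the bounds of the gene. The 500 kb upstream held 0 knockout and 2 wild-type peaks, both on the minus strand. ADGRB3-DT, a long noncoding gene that ends 957 bp before ADGRB3, and LOC124901492, a noncoding gene inside its bounds, held 0 peaks in both lists. The 284.5 kb from the end of ADGRB3 to LMBRD1 held 2 knockout peaks on the plus strand and 0 wild-type peaks. Widening the bounds by 10 kb added no peak to any of the 3 genes. The exons of ADGRB3 were not used here, so exonic and intronic peaks were not separated.

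**Figure D1:**
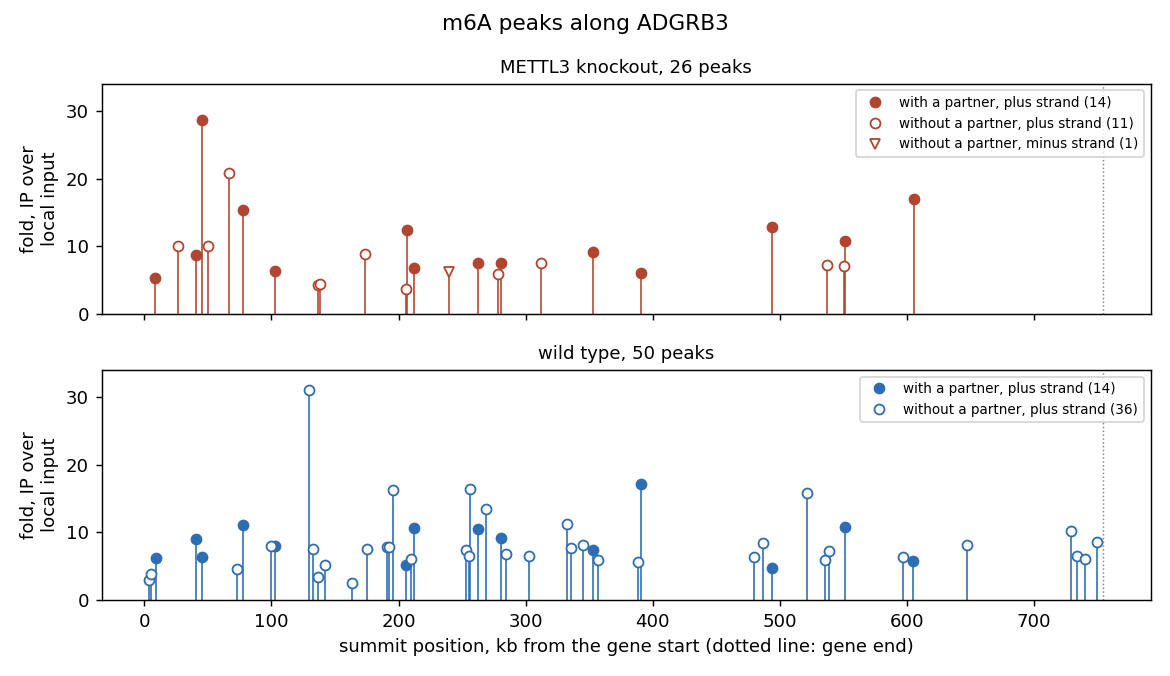
m6A peaks along ADGRB3, each drawn at its summit (kb from the gene start, x axis) with its fold of IP over local input (y axis), METTL3 knockout above wild type. Filled symbols have an overlapping same-strand peak in the other list (14 in each), open symbols have none, and knockout peaks end at 605.3 kb whereas wild-type peaks go on to 750 kb.

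ADGRB3 had 26 knockout and 50 wild-type peaks, or 3.45 and 6.63 peaks per 100 kb. Of the 520 protein-coding genes of like length 73.3% had a knockout peak and 73.5% a wild-type peak. The ratio of knockout to wild-type peaks was 0.52, against 0.823 for the whole lists. Among these genes, which have 0.5 to 2 times its length (378.6 to 1506 kb), ADGRB3 ranked 24 by knockout density and 3 by wild-type density, where the medians were 0.542 and 0.622 per 100 kb. By number of peaks, it ranked 17 in the knockout and 2 in wild type among 20033 protein-coding genes. The median ratio was 0.837 among the 144 long genes with 20 or more peaks in all. Of these genes, 21 had a lower ratio than ADGRB3, among them TENM1 (1 and 42 peaks) and PCDH7 (17 and 33). A ratio this low was thus shared with a minority of long genes, all with fewer peaks in all than ADGRB3.

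Position within the gene was read in 5 equal sections of 150.8 kb, from start to end. The knockout had 10, 8, 3, 4 and 1 peaks in them, and wild type 13, 15, 8, 8 and 6. On the plus strand the first section held 40% of the 25 knockout peaks and 26% of the 50 wild-type peaks, and the last section 4% and 12%. Pooled over the other long genes of known strand (423 genes), the shares were flatter. The first section held 22.4% of knockout and 22.7% of wild-type own-strand peaks, and the last 17.9% and 17.5%. Sections were not counted gene by gene, so a skew within single genes would not be seen in these pooled shares. With 1 knockout peak in the last section of ADGRB3, these shares carry a large counting error.

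Successive summits on the plus strand lay a median of 17.1 kb apart in the knockout (quartiles 5.89 and 35.7, range 0.566 to 103.1, 24 intervals). In wild type the median was 6.99 kb (quartiles 3.87 and 21.3, range 1.18 to 89.07, 49 intervals). Intervals under 5 kb numbered 5 of 24 and 19 of 49. The widest interval began at the same place in both lists, 391 to 494.2 kb from the start in the knockout and 391.1 to 480.1 kb in wild type. No stretch of 50 kb held more than 5 knockout or 8 wild-type peaks. Knockout stretches with 5 overlapped each other, with summits from 8.681 to 77.22 kb, and wild type had 8 in each of 2 stretches, with summits from 163.7 to 212.5 kb and from 253.4 to 302.8 kb.

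A partner was a peak of the other list that overlapped by 1 bp or more on the same strand. Of the knockout ADGRB3 peaks 14 of 26 had one (53.8%, 95% Clopper-Pearson interval 33.4 to 73.4), and of the wild-type peaks 14 of 50 (28.0%, 16.2 to 42.5). These intervals cover counting error only. Over all peaks the shares were 24.8% in the knockout and 20.4% in wild type, and in other long genes 20% and 16.7%. Among the 144 long genes with 20 or more peaks, 2 had a higher share than ADGRB3 in the knockout list, and 36 did in wild type (of 143 with a wild-type peak). The 14 pairs are the same peaks counted from either side, and the knockout share is the larger since that list has fewer peaks in the gene.

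Partners were found mainly at peaks with many reads. The list medians were 30 IP reads at a knockout summit and 24 at a wild-type summit. Above them, 66.7% of ADGRB3 knockout peaks (10 of 15) and 36.7% of wild-type peaks (11 of 30) had a partner, and at or below them 36.4% (4 of 11) and 15% (3 of 20). Over all peaks of the lists the shares were 39% and 33.1% above the medians, and 10.7% and 8% at or below. ADGRB3 followed the order of the lists at large.

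The 14 pairs were the only places where both genotypes gave a value. Summits of a pair lay a median of 40.5 bp apart (range 5 to 590), 11 of them within 100 bp. Fold was higher in the knockout in 6 pairs and in wild type in 8, with a median log2 ratio of knockout over wild type of −0.03 (range −1.51 to 2.16). Over all 5947 pairs of the lists 51% had a higher fold in the knockout. Folds of ADGRB3 pairs thus differed in both directions.

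The most strongly supported pair lay 44.96 kb from the start, at 68680125 to 68680412 in the knockout and 68680107 to 68680386 in wild type. Its fold was 28.6 in the knockout, against 6.40 in wild type, with 195 and 262 IP reads. The summits had few input reads around them in the knockout (local input 2.3) and many in wild type (24), so the knockout fold was higher on fewer IP reads. A pair at 605.2 kb had the same form, with folds of 16.9 and 5.78, 41 and 65 IP reads and local inputs of 0.22 and 6. So had the pair at 494.1 kb, with folds of 12.8 and 4.69, 29 and 37 IP reads and local inputs of 0.16 and 4. The pair at 77.26 kb was of this form too, with folds of 15.4 and 11.0, 84 and 144 IP reads and local inputs of 1.68 and 7. In these 4 pairs the higher knockout fold went with a lower local input and not with more IP reads.

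The pair at 205.8 kb was different, with folds of 12.5 in the knockout and 5.13 in wild type on 52 and 21 IP reads, but its summits were 590 bp apart and its peaks shared 114 bp at their edges. The pair at 352.9 kb also had more knockout IP reads, with folds of 9.13 and 7.46 on 36 and 19 reads and local inputs of 1 and 0.68. These complete the 6 with the higher fold in the knockout.

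Of the 8 pairs with the higher fold in wild type, that at 391.1 kb differed most, with 6.02 in the knockout and 17.1 in wild type on 18 and 35 IP reads. The pair at 212.5 kb had 6.79 and 10.7 on 97 and 104 reads, and that at 262.4 kb 7.61 and 10.5 on 36 reads in both. A read entered the fold with a lower weight in the knockout list (given below), so equal read numbers were not equal IP signal. With these weights the IP values of the pair at 262.4 kb were 17.3 and 21.8. Folds were 6.32 and 8.06 at 102.7 kb, 7.48 and 9.16 at 280.7 kb and 5.28 and 6.20 at 8.742 kb. The pairs at 40.23 kb (8.75 and 8.97) and 551.1 kb (10.8 and 10.9) were nearly equal. The log2 ratio lay within the quartiles over all pairs, −0.50 and 0.51, in 6 of these 8 pairs and in 2 of the 6 pairs with the higher knockout fold.

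Set on one scale per list, the IP signal of the pairs was lower in the knockout. Each IP read enters the fold with a weight that was the same for all peaks of a list and strand. Solved from the values, that weight was 0.479 in the knockout and 0.607 in wild type on the plus strand. The scaled IP pileup was lower in the knockout in 12 of 14 pairs, with medians of 22.3 and 30.9 and a median log2 ratio of −0.61. Over all pairs it was lower in the knockout in 59.3%, with a median of −0.13 (quartiles −0.48 and 0.26). Local input was lower in the knockout in 9 of 14 pairs, with medians of 1.24 and 4.5 input reads, against 55.8% of all pairs and medians of 2.2 and 2.8. The lowest local input found on the plus strand, the genome-wide floor, was in the knockout 0.925 of that in wild type. Pileups and local inputs of the 2 lists were compared without a correction for this ratio. The part of IP and input signal in the lower number of knockout peaks was not tested. Whether the amount of ADGRB3 RNA was lower in the knockout was not tested. A lower amount per cell and fewer cells with it could not be told apart in bulk libraries.

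**Figure D2:**
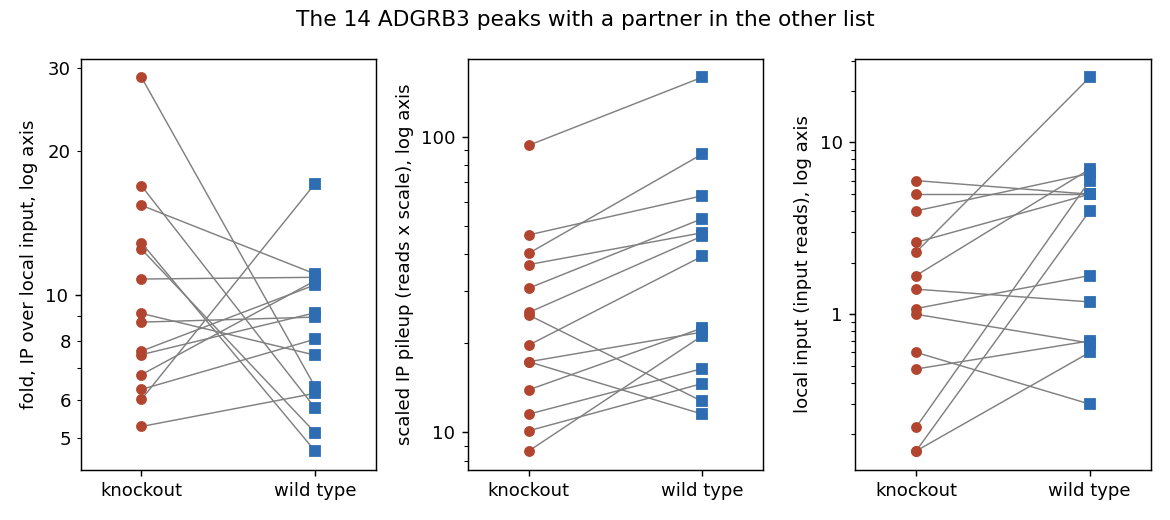
The 14 ADGRB3 pairs, knockout left and wild type right, 1 line per pair, with fold (left), scaled IP pileup (middle) and local input in input reads (right), all on log axes. Folds cross in both directions, scaled IP pileup is lower in the knockout in 12 pairs, and local input is lower there in 9.

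Peaks without a partner were 12 in the knockout and 36 in wild type. Their median fold was 7.17 in the knockout (range 3.69 to 20.8) and 7.28 in wild type (range 2.56 to 30.95). The strongest of all wild-type ADGRB3 peaks belonged to this class, at 68764210 to 68764647, with a fold of 30.95 on 82 IP reads over a local input of 0.64. The nearest knockout peak was 7.47 kb away. The fold of this peak was among the values by which the gene was chosen. Both lists nevertheless held strong peaks of this kind. The knockout peak at 68701990 to 68702224 had a fold of 20.8 on 117 IP reads over a local input of 1.74, and the nearest wild-type peak was 5.53 kb away.

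Other wild-type peaks without a partner reached folds of 16.5 (68891616 to 68891889, 45 IP reads), 16.3 (68831024 to 68831285, 67 reads) and 15.9 (69156375 to 69156637, 35 reads). In the knockout, 68661549 to 68661989 and 68685272 to 68685553 followed, each with a fold of 10.1 or 10.0, on 61 and 62 reads. Lacking a partner was thus not limited to weak peaks in either list. The lists give no value where no peak was called, so the level of the other genotype at these places is not known.

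Some peaks without a partner were near misses. On the plus strand the nearest peak of the other list was a median of 1.78 kb away for the 11 knockout peaks (range 0.018 to 13.4) and 7.14 kb for the 36 wild-type peaks (0.259 to 128). Within 1 kb lay 4 of 11 and 2 of 36. The closest was the knockout peak at 68840758 to 68841005, 18 bp from the wild-type peak of the pair at 205.8 kb. Its summit (68840834) lay nearer to the wild-type summit (68841109) than the summit of the paired knockout peak did (68841699). Its fold was 3.69, against 12.5 for the paired knockout peak and 5.13 for the wild-type peak. The 5 wild-type peaks farthest downstream, from 69282822 to 69385323, were also the farthest from any knockout peak, by 42.1 to 128 kb. They rested on 10 to 18 IP reads each over a local input of 0.173, the lowest value that list allows on the plus strand.

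Reads behind the peaks were most numerous in the first section of the gene in both lists, without a steady fall after it. Median IP reads at plus-strand summits in the 5 sections were 68.5, 24, 21, 22.5 and 41 in the knockout, the last from a single peak, and 78, 29, 18, 22.5 and 14.5 in wild type. Median local input was 2.46, 1.08, 0.6, 0.16 and 0.22 input reads in the knockout, and 6.6, 1.2, 0.53, 0.67 and 0.173 in wild type. Folds had no common order across the lists. Their medians were 9.4, 7.48, 7.48, 9.03 and 16.9 in the knockout and 6.4, 7.89, 7.56, 6.77 and 7.32 in wild type. In other long genes median local input at own-strand peaks was also highest in the first section and lowest in the last, 0.86 and 0.28 in the knockout and 1 and 0.49 in wild type. These values are known only where a peak was called.

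**Figure D3:**
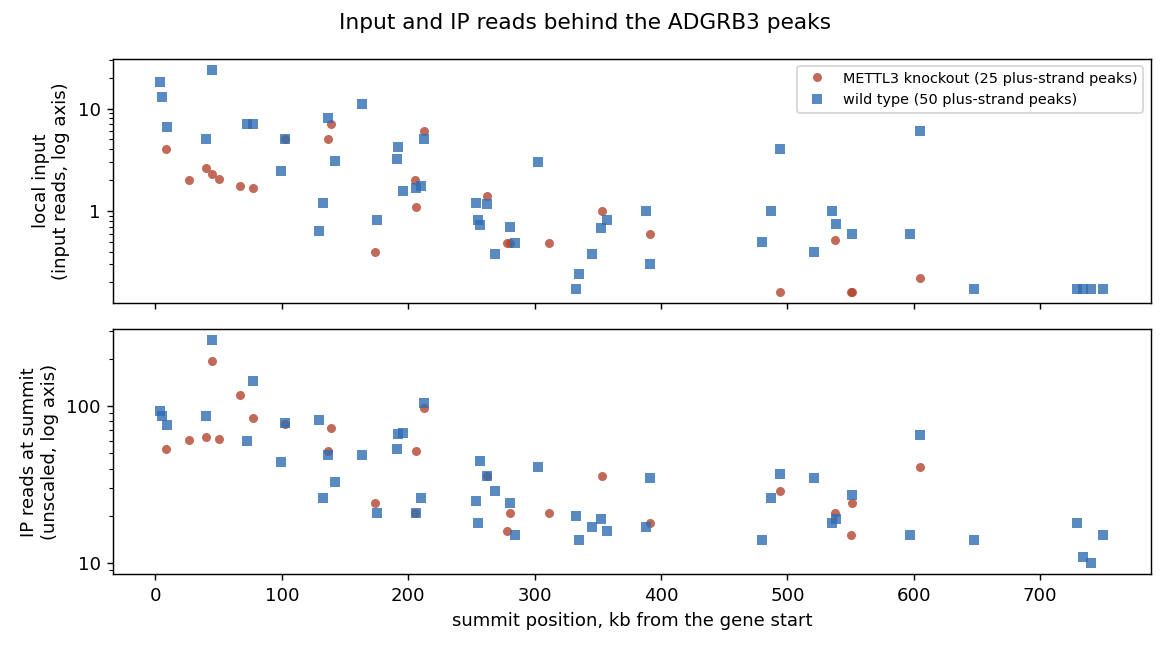
Local input in input reads (upper panel) and unscaled IP reads at the summit (lower panel), both on log axes, against distance from the ADGRB3 start in kb, for the 25 knockout and 50 wild-type plus-strand peaks. Medians of both are highest in the first section. Local input there has a median of 2.46 over 10 knockout peaks and 6.6 over 13 wild-type peaks, which are not all the same places.

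Median folds of ADGRB3 peaks were close to those of the whole lists. Folds had a median of 7.54 in the knockout (quartiles 6.29 and 10.6) and 7.5 in wild type (6.05 and 9.11), against 7.06 and 7.29 for the whole lists. Peaks above the list's own median fold numbered 16 of 26 in the knockout (61.5%, Clopper-Pearson 40.6 to 79.8) and 27 of 50 in wild type (54.0%, 39.3 to 68.2), where about 50% is the share by construction. The top 10% of each list by fold held 6 of the 26 knockout peaks and 6 of the 50 wild-type peaks. Widths had medians of 244 bp and 252 bp, against 209 and 204 bp in the lists. The shortest, at 200 bp, were 6 of 26 and 14 of 50.

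The other family members were nearly empty. ADGRB2 held 0 knockout and 2 wild-type peaks, both on its own strand. One, at 31756448 to 31756748 and 7.72 kb from the start, had a fold of 5.79 on 59 IP reads, and the other, at 31730880 to 31731079 and 3.929 kb from the gene's far bound, had 7.36 on 24 reads, where a different read number would also solve the values. Of 6888 protein-coding genes of 0.5 to 2 times the length of ADGRB2, 40.7% had a knockout peak and 47.8% a wild-type peak. ADGRB1 (gene ID 575) occupies 142449649 to 142545007 of chromosome 8, and its strand was not in the table used. It held 0 knockout and 1 wild-type peak, on the plus strand at 142544398 to 142544597, 0.465 kb inside its upper bound, with a fold of 3.97 on 18 reads and, in the authors' deposited table, a −log10 q of 2.52. Of 5036 genes in its length range, 58.9% had a knockout peak and 64.7% a wild-type peak. At 1 and 2 peaks, absence from the knockout list separates neither gene from the many genes that have none.

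Of the wider adhesion receptor family, 28 of 29 listed genes were matched. Of these, 2 had peaks from the knockout only (ADGRE5 and CELSR3), 8 from both genotypes, 2 from wild type only (ADGRA2 and ADGRG6) and 16 from neither. In percent these were 7.14, 28.6, 7.14 and 57.1, against 8.23, 26.6, 13 and 52.1 over all protein-coding genes, of which 34.9% had a knockout and 39.6% a wild-type peak. The median number of peaks was 0 in both lists, for this family as for all protein-coding genes. ADGRL3, a latrophilin that binds teneurins and FLRT proteins at synapses, held 18 knockout and 15 wild-type peaks with 3 pairs. ADGRV1, a giant receptor of sensory hair cells, held 17 and 14 with 3 pairs, and the latrophilin ADGRL2 held 6 and 4 with none. In these 3 long members the knockout count was the higher one, unlike in ADGRB3. The planar polarity cadherin CELSR1 held 4 and 4, ADGRA3 3 and 2, and ADGRL1 1 and 2.

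Among 8 extracellular partners, 2 held peaks from both genotypes (NLGN1 and RTN4RL2) and 6 from neither. In percent these were 25 and 75, against 26.6 and 52.1 over all protein-coding genes. NLGN1, a neuroligin of the excitatory postsynapse that was reported to bind ADGRB1, held 51 knockout and 48 wild-type peaks in 898 kb, with 21 pairs. Its density was 5.68 and 5.34 per 100 kb. RTN4RL2, a Nogo receptor homologue, held 2 and 6 peaks. The C1q-like ligand genes C1QL1, C1QL2, C1QL3 and C1QL4 and the receptor genes RTN4R and RTN4RL1 held 0 in both. The C1q-like genes are 2.51 to 8.61 kb long, RTN4R 26.9 kb and RTN4RL1 90.7 kb. Shares over all protein-coding genes were not matched to these lengths.

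Of 14 intracellular partners and effectors, 2 had peaks in the knockout alone (DLG4 and RAC1), 8 in both lists, 3 in wild type alone (BAIAP2, ELMO1 and RHOA) and 1 in neither. In percent these were 14.3, 57.1, 21.4 and 7.14, against 8.23, 26.6, 13 and 52.1 over all protein-coding genes. Their median was 1.5 knockout and 2.5 wild-type peaks, against 0 and 0 over all protein-coding genes, most of which are shorter than several of these. DOCK1, the exchange factor that works with ELMO proteins, held 3 and 10 peaks with no pair. MAGI3, a membrane scaffold with PDZ domains, held 18 and 20, MAGI2 10 and 19, and MAGI1 11 and 8. The polarity scaffold PARD3 held 6 and 10 peaks, with top folds of 28.3 and 35.4. TIAM1, an activator of RAC1, held 5 and 8. Among the listed regulators, MBD2, a reader of methylated DNA that was reported to silence ADGRB1, held 2 and 3 peaks, MDM2 2 and 2, and GABPA 0 and 2.

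The 5 long genes closest to ADGRB3 in both peak counts were sought by Euclidean distance in log2(knockout peaks + 1) and log2(wild-type peaks + 1). ROBO1, an axon guidance receptor, was closest (25 knockout and 38 wild-type peaks, distance 0.39, 9 pairs). LRRC37A2 followed with 29 and 38 (0.42, 12 pairs), a gene with near-identical neighbours, so that its reads are uncertain. Unlike in ADGRB3, only 19 of its knockout and 26 of its wild-type peaks lay on its own strand. GALNT13, a glycosyltransferase, had 27 and 37 (0.43, 5 pairs). The ephrin receptor EPHA6 had 34 and 41 (0.47, 14 pairs) and the phospholipase gene PLCB1 25 and 35 (0.51, 4 pairs).

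**Figure D4:**
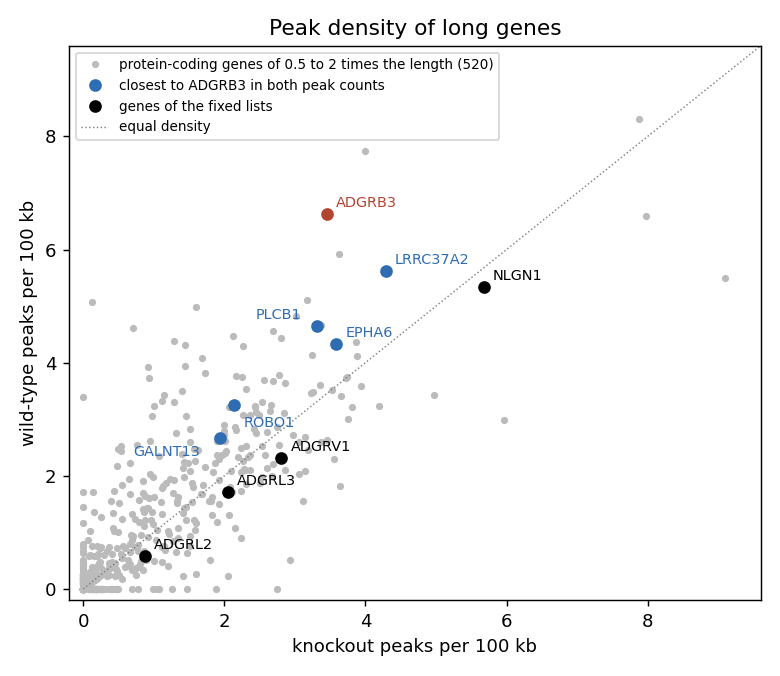
Knockout (x axis) and wild-type (y axis) peaks per 100 kb of the 520 protein-coding genes of 0.5 to 2 times the length of ADGRB3, with the line of equal density. ADGRB3, at 3.45 and 6.63, lies above the line, and NLGN1, ADGRV1, ADGRL3 and ADGRL2 lie just below it.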

How the data were processed

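Chromatin-associated RNA was depleted of rRNA, immunoprecipitated for m6A and made into stranded libraries, per the labels' protocols. Per the submitters' processing notes, the tools were MACS2 2.2.7.1, SAMtools 1.15.1 and HISAT2 2.2.1 on hg38, with settings and the pooling of replicates not given in the sources used here. The 2 deposited lists carry, per peak, a score (not used), the peak caller's fold as a ratio of IP over local input, and −log10 p and q, all computed by the authors. In the authors' deposited table the lowest −log10 q was 2.02 in the knockout and 2.01 in wild type. Total library depth is unknown.

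IP reads and local input were solved from fold, (IP + 1) / (local input + 1), and p, the Poisson tail. IP had to be a whole multiple of one scale per list and strand. The tolerance was 0.02 reads, widened in proportion to the reads for peaks with many reads. Among solutions, those with local input on steps of 0.02 input reads or at the genome-wide floor were taken, and 1 was left for 96.3 to 99.1% of peaks. On 1809 simulated peaks 100% of read numbers were recovered. Their local inputs were whole reads or a single floor value, and their reads did not reach the highest and lowest of ADGRB3. Recovery at local inputs between whole reads was therefore not tested.

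Gene bounds and strands came from RefSeq GRCh38.p14, in which 15842 of 20033 protein-coding genes had a strand. The genes and lists were chosen with earlier results of these data known, and named genes followed fixed counts (5 strongest peaks per list, all pairs, at most 6 genes per list, the 5 most similar genes). A few further genes are named because counts of 5 or fewer were listed in full. One gene of the regulator list is not reported here. Groups came from the sample titles. Alternatives are given at the end. Python 3.11.15, numpy 2.4.6, pandas 2.3.3, SciPy 1.17.1 and matplotlib 3.10.9 were used.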

Additional observations from a re-analysis of the deposited data

How the results depend on the processing

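Of 56 values computed under an alternative, 51 stayed within the Clopper-Pearson interval of the share, or within 1.5 times the count, rank or distance, or stayed at 0. Among them, the knockout counts of 0 in ADGRB1 and ADGRB2 could not change under a stricter q. The intervals of the shares were wide, so only large moves would leave them. The other 5 moved. Keeping only peaks at or above the list's median fold left 17 knockout and 27 wild-type ADGRB3 peaks, which follows from removing about 50% of each list. Among the 180 genes of a narrower range of lengths, ADGRB3 ranked 8 by knockout and 1 by wild-type density, in a smaller set. With a −log10 q of 5 or more, ADGRB1 held 0 wild-type peaks. With equal numbers of strongest peaks from both lists, ADGRB3 held 26 knockout and 39 wild-type peaks, and the shares with a partner were 50% and 33.3%. Over the overlap rules the share with a partner ran from 46.2 to 65.4% in the knockout and from 24 to 30% in wild type. Shares over all peaks were not computed under these alternatives, so how ADGRB3 compares with the lists under them is not known. No paired analysis was possible because each genotype has a single peak list without values per replicate, and no replicate could be left out for the same reason. Total depth is unknown, and the 5 wild-type ADGRB3 peaks farthest downstream rested on 10 to 18 IP reads.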
